A study of Mus musculus with 18 samples.

Results

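Whether a graft's mode of upkeep altered gene expression in the same way at an early and a late stage of T-cell development was examined by RNA sequencing of sorted mouse thymocytes. The measure was an interaction on the log2 scale: the autonomy minus turnover difference in DP cells, minus the same difference in DN3 cells. It was computed for every gene from the deposited read counts, and all 18 of 18 libraries entered it. A value above 0 means that autonomy minus turnover was higher in DP than in DN3 cells, and a value below 0 that it was lower. All cells came from wild-type thymi 28 days after grafting. Turnover was represented by 4 DN3 and 4 DP libraries, and autonomy by 5 DN3 and 5 DP libraries. In the thymus graft field, turnover stands for thymocytes being continually replaced by progenitors that enter the graft, and autonomy for a graft that sustains T-cell production on its own. The labels used here do not state the hosts, their genotype, and the strain, sex and age of the mice. The labels do not state that libraries of a group are separate animals, and turnover libraries carry paired names (RP1140A and RP1140B, RP1141A and RP1141B), so p-values reflect only the spread among these libraries, part of which may be technical.

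DN3 cells are CD4 and CD8 double-negative thymocytes that rearrange the T-cell receptor beta gene. Cells that make a working beta chain pass beta-selection, in which the pre-T-cell receptor and Notch drive a burst of division. DP cells carry both CD4 and CD8: the youngest of them still divide, and the others rest while they rearrange the alpha chain and await positive selection. Entry into S phase depends on cyclin E and E2F, and passage through G2 and mitosis on cyclins A and B, Plk1 and the spindle and cytokinesis machinery. Bulk RNA cannot tell fewer dividing cells in a sorted population from less transcript per cell.

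Total counts ran from 12260295 to 14846126 in DN3 turnover, 7426834 to 21808512 in DN3 autonomy, 6329039 to 24191044 in DP turnover and 5032273 to 20076446 in DP autonomy. Levels below are CPM values, read counts divided by each library's TMM-adjusted total, which compare a gene between libraries and not genes with each other. DN3 turnover library RP1141B stood apart. The summed level of 9 DP marker genes was 3001 CPM in it, against 1193 to 1443 CPM in the other DN3 turnover libraries, 997 to 1204 CPM in DN3 autonomy and 7795 to 9864 CPM in the DP libraries. The summed level of 9 DN3 markers was 1678 to 3613 CPM in DN3 libraries, 188 to 227 CPM in DP turnover and 248 to 484 CPM in DP autonomy. Both sorts thus carried the markers of their labels, but the DN3 marker sum was higher in every DP autonomy library than in any DP turnover library. Whether DN3 transcripts in the DP autonomy libraries contributed to rises of DN3-high genes there was not tested. Because of RP1141B, results are given for all 18 libraries and, beside the counts and main genes, without it.

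The autonomy effect differed between the stages for 633 of 11521 genes tested (5.49%; edgeR quasi-likelihood test, adjusted p under 0.05), with 332 above 0 (2.88%) and 301 below 0 (2.61%). Among them 268 and 262 differed by at least 2-fold. Without RP1141B 424 of 11834 genes passed (3.58%), 192 above 0 (1.62%) and 232 below 0 (1.96%), and 404 genes passed in both fits with the same sign. Of the calls lost without RP1141B, 143 were above 0 and 86 below 0. Leaving out some other libraries, of DN3 or of DP cells, also cost calls. Without DN3 turnover RP1140A 439 genes passed (226 above 0), and without DN3 autonomy RP1137 459 (223 above 0). Among the DP libraries the lowest count was 497 (263 above 0), without DP turnover RP1140B. Without DN3 turnover RP1140B 661 passed, and without DP autonomy RP1138 684. The median interaction of all genes was 0.06 with RP1141B and 0.01 without it. With the A and B libraries of a number summed, which leaves 2 samples per turnover group, 145 genes passed, and DESeq2 called 1101.

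The called genes were sorted by the single-stage tests of the same model. Those tests called 1006 genes in DN3 (8.73%), 425 higher (3.69%) and 581 lower (5.04%) in autonomy. In DP they called 279 genes (2.42%), 113 higher (0.981%) and 166 lower (1.44%). Of the 633, 348 passed in DN3 alone, 226 of them above 0 and 122 below. A further 111 passed in DP alone, 27 above 0 and 84 below, and 148 passed in neither single test. Only Trbj1-3, a joining segment of the T-cell receptor beta locus named after its values were seen, passed in the same direction at both stages, falling more in DN3 (log2 −2.52) than in DP (log2 −0.84). The remaining 25 passed at both stages in opposite directions, and all 25 also passed the interaction test without RP1141B. Of these, 23 rose in DN3 autonomy and fell in DP autonomy, while Rsrp1 and BC025920, both named after their values were seen, did the reverse. Rsrp1, an arginine- and serine-rich protein, fell in DN3 from 1344 ± 299 to 623 ± 125 CPM and rose in DP from 2131 ± 74.5 to 3212 ± 335 CPM (SD, n = 4 turnover and 5 autonomy, as for every mean below). Its interaction was 1.70 (SE 0.21, adjusted p = 0.000162), and 1.52 (SE 0.18) without RP1141B.

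**Figure D1:**
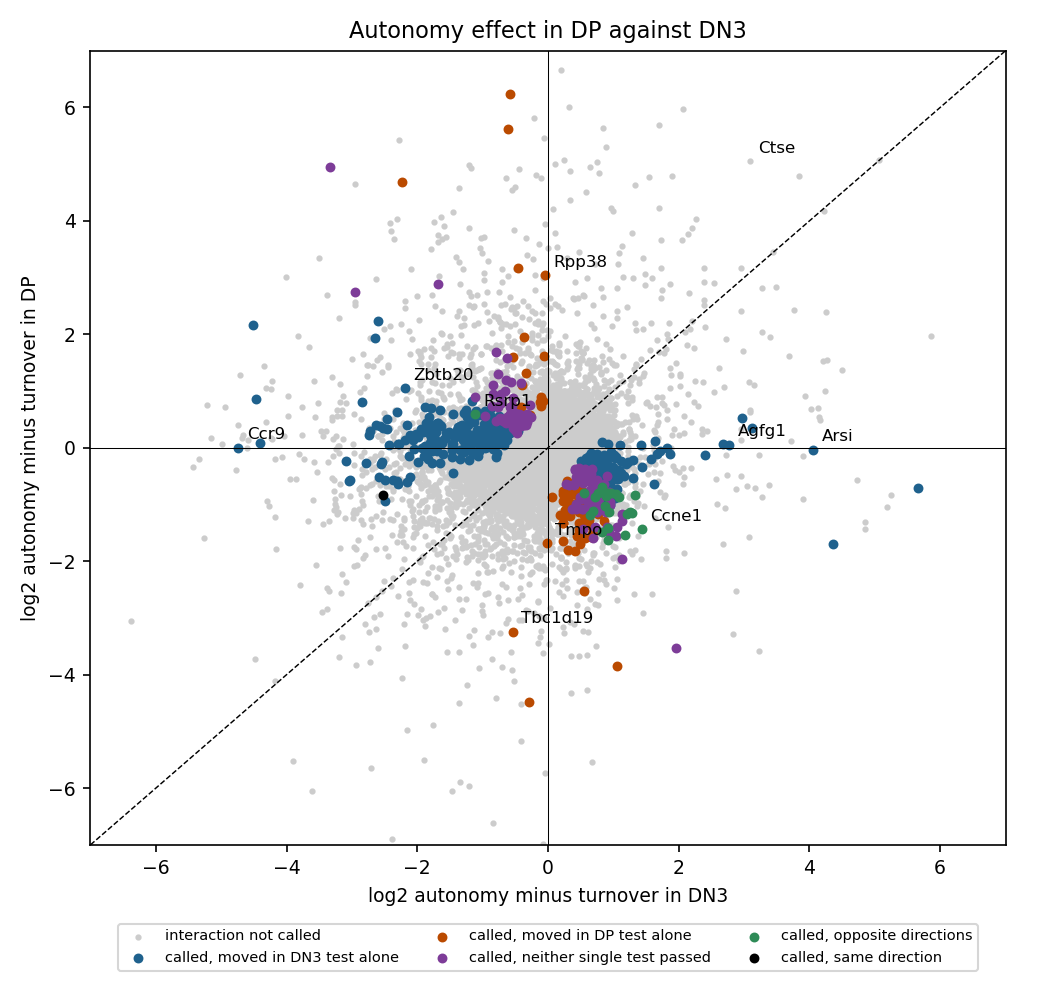
Autonomy minus turnover (log2) in DP on the vertical axis against DN3 on the horizontal axis, 1 point per gene, for the 11046 tested genes with reads in all 4 groups (2 lie outside the axes). The dashed line marks an equal effect at both stages. Ccr9, Arsi and Agfg1 lie along the DN3 axis, Rpp38 and Tbc1d19 along the DP axis, and the green points around Ccne1 lie in the quadrant of higher DN3 and lower DP values, with Rsrp1 in the opposite one.

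The 23 genes that rose in DN3 and fell in DP autonomy were Ccne1, Anln, Spdl1, Hmmr, Kif15, Pola1, Plk1, Ccna2, Cdc20, Racgap1, Arhgap19, Tuba1c, Bub1, Cip2a, Fbxo5, Timeless, Lmnb1, Cdca3, Tpx2, Rrm1, Ube2c, Prc1 and Mcm6, with interactions from −2.87 to −1.36. They include 9 genes of the G2 and mitosis list and 4 of the S phase list. RefSeq promoters (GRCm38.p6, from upstream of the start to just after it) were given for 20 of the 23, as 21 promoters. The promoters of Anln, Hmmr and Kif15, members with some of the widest swings, are shown since the genes move together and each holds a match. The promoter of Ccne1, the gene with the widest swing, held no match to any motif searched. Each is written in the direction of its gene. Capitals mark every match on either strand to TTTGAA (the CHR, a cell cycle gene homology region element), CCAAT (the NF-Y box), the E2F motif TTTGGCGC, the E2F motif TTTCCCGC, the E-boxes CAGGTG and CAGCTG, and TGGGAA (RBPJ).
Anln, chr9:22389157-22389456, minus strand: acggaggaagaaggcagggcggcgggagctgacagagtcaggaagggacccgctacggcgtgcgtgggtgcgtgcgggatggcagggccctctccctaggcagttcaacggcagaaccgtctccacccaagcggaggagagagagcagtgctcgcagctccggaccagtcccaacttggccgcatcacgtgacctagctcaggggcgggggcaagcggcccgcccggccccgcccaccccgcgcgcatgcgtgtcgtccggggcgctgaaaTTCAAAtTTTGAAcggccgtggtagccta
Hmmr, chr11:40733388-40733687, minus strand: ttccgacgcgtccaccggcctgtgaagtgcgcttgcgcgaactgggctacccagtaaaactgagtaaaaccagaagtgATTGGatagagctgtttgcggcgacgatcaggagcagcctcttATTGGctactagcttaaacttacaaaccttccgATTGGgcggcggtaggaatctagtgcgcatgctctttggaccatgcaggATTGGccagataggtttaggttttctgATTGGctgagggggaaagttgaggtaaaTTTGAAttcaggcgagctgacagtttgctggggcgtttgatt
Kif15, chr9:122950831-122951130, plus strand: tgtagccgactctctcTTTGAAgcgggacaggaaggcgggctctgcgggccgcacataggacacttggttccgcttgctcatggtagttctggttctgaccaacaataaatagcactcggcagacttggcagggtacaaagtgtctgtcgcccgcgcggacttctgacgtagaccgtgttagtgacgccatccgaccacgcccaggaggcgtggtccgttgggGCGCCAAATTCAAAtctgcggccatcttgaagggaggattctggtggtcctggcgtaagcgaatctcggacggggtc

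In the Anln window the capitals are TTTGAA, once on each strand, shortly after the start of the transcript. The Hmmr window holds CCAAT 5 times, each on the reverse strand, and TTTGAA just after the start. In the Kif15 window a reverse-strand TTTGGCGC is followed directly by a reverse-strand TTTGAA, and a further TTTGAA lies near the far end. TTTGAA was in 13 of the 21 promoters (61.9%), against 17.9% of all 32851 promoters and 12.1% of the 11367 promoters of genes tested. CCAAT was in 17 (81%), against 37.4% and 38.3%. TTTGAA and CCAAT were searched after the genes' values had been seen. In the same order of sets, TTTGGCGC was in 3 (14.3%), against 0.514% and 0.968%, TTTCCCGC in none, against 1.07% and 2.14%, and TGGGAA in 4 (19%), against 25.6% and 23.2%. CAGGTG was in 1 (4.76%), against 20.2% and 17.7%, and CAGCTG in 1 (4.76%), against 16.3% and 14.8%. A match is a description of the letters and not evidence of binding.

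Ccne1, the cyclin E1 that drives entry into S phase, had the widest swing of the 23. In DN3 turnover its level was 52.7, 68.6, 40.6 and 71.4 CPM, and in DN3 autonomy 151, 157, 88.4, 165 and 230.2 CPM. In DP turnover it was 60.5, 83.2, 45.4 and 69.2 CPM, and in DP autonomy 23.3, 14.03, 44.6, 16.7 and 21.2 CPM. All autonomy libraries thus lay above turnover in DN3 and below it in DP. The means moved from 58.3 ± 14.4 to 158 ± 50.4 CPM in DN3, a 2.71-fold rise, and from 64.6 ± 15.8 to 23.96 ± 12.1 CPM in DP, a 2.70-fold fall. The interaction was −2.87 (SE 0.44, adjusted p = 0.00075), and −3.01 (SE 0.48, adjusted p = 0.00153) without RP1141B. Ccne1 (ENSMUSG00000002068) spans 38097984 to 38107534 on the minus strand of chromosome 7 of GRCm38.

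Anln encodes anillin, the scaffold of the contractile ring that separates daughter cells. Its DN3 turnover libraries held 77.5, 52.5, 64.2 and 42.4 CPM and its DN3 autonomy libraries 119, 187, 121, 120.1 and 124 CPM. Its DP turnover libraries held 178, 133, 102 and 114 CPM and its DP autonomy libraries 30.7, 43.1, 55.4, 44.6 and 53.1 CPM. The groups did not overlap at either stage, and DN3 autonomy reached the level of DP turnover. The interaction was −2.72 (SE 0.32, adjusted p = 0.000125), and −2.60 (SE 0.32, adjusted p = 0.000154) without RP1141B. Anln (ENSMUSG00000036777) spans 22332012 to 22389188 on the minus strand of chromosome 9.

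Ccna2, the cyclin A2 of S phase and G2, had 236, 269, 223 and 180.1 CPM in DN3 turnover and 586, 337, 320.1, 522 and 369 CPM in DN3 autonomy. In DP cells its level was 384, 429, 254 and 267 CPM in turnover and 82.6, 91.2, 125, 61.2 and 181 CPM in autonomy. Here too neither pair of groups overlapped. The interaction of Ccna2 was −2.54 (SE 0.38, adjusted p = 0.000641), and −2.46 (SE 0.40) without RP1141B. Plk1, the polo-like kinase of mitotic entry and spindle assembly, had 139, 133, 201 and 116.6 CPM in DN3 turnover and 353, 199.8, 203, 326 and 315 CPM in DN3 autonomy. In DP it had 230.0, 168, 103 and 156 CPM in turnover and 62.5, 39.0, 76.1, 42.9 and 88.7 CPM in autonomy. Plk1 groups were apart in DP, whereas in DN3 turnover library RP1141A (201 CPM) lay just above autonomy library RP1134 (199.8 CPM). Its interaction was −2.33 (SE 0.38, adjusted p = 0.00119), and −2.25 (SE 0.40) without RP1141B.

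Hmmr, a spindle-associated hyaluronan receptor, had 101, 84.9, 101 and 101 CPM in DN3 turnover and 276, 268, 197, 229 and 206 CPM in DN3 autonomy. Its DP libraries had 302, 301, 167 and 211 CPM in turnover and 90.7, 191, 75.8, 52.3 and 145 CPM in autonomy. Its DN3 groups were apart and its DP groups overlapped through autonomy library RP1135. Of the 23 genes, 21 had DN3 groups that did not overlap and 16 had such DP groups, against 17.4% and 7.42% of all genes tested, and the single-stage calls that chose these genes rest on the same values. Kif15, a spindle kinesin, Pola1, the catalytic subunit of DNA polymerase alpha, and Spdl1, a kinetochore adaptor, had interactions of −2.38 (SE 0.30), −2.07 (SE 0.39) and −2.38 (SE 0.42), with values of −2.29, −1.90 and −2.32 without RP1141B. Mcm6, a subunit of the replicative helicase, moved less: from 1387 ± 121 to 2040 ± 318 CPM in DN3 and from 437 ± 79.4 to 251 ± 50.1 CPM in DP. Its interaction was −1.36 (SE 0.22, adjusted p = 0.00121).

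**Figure D2:**
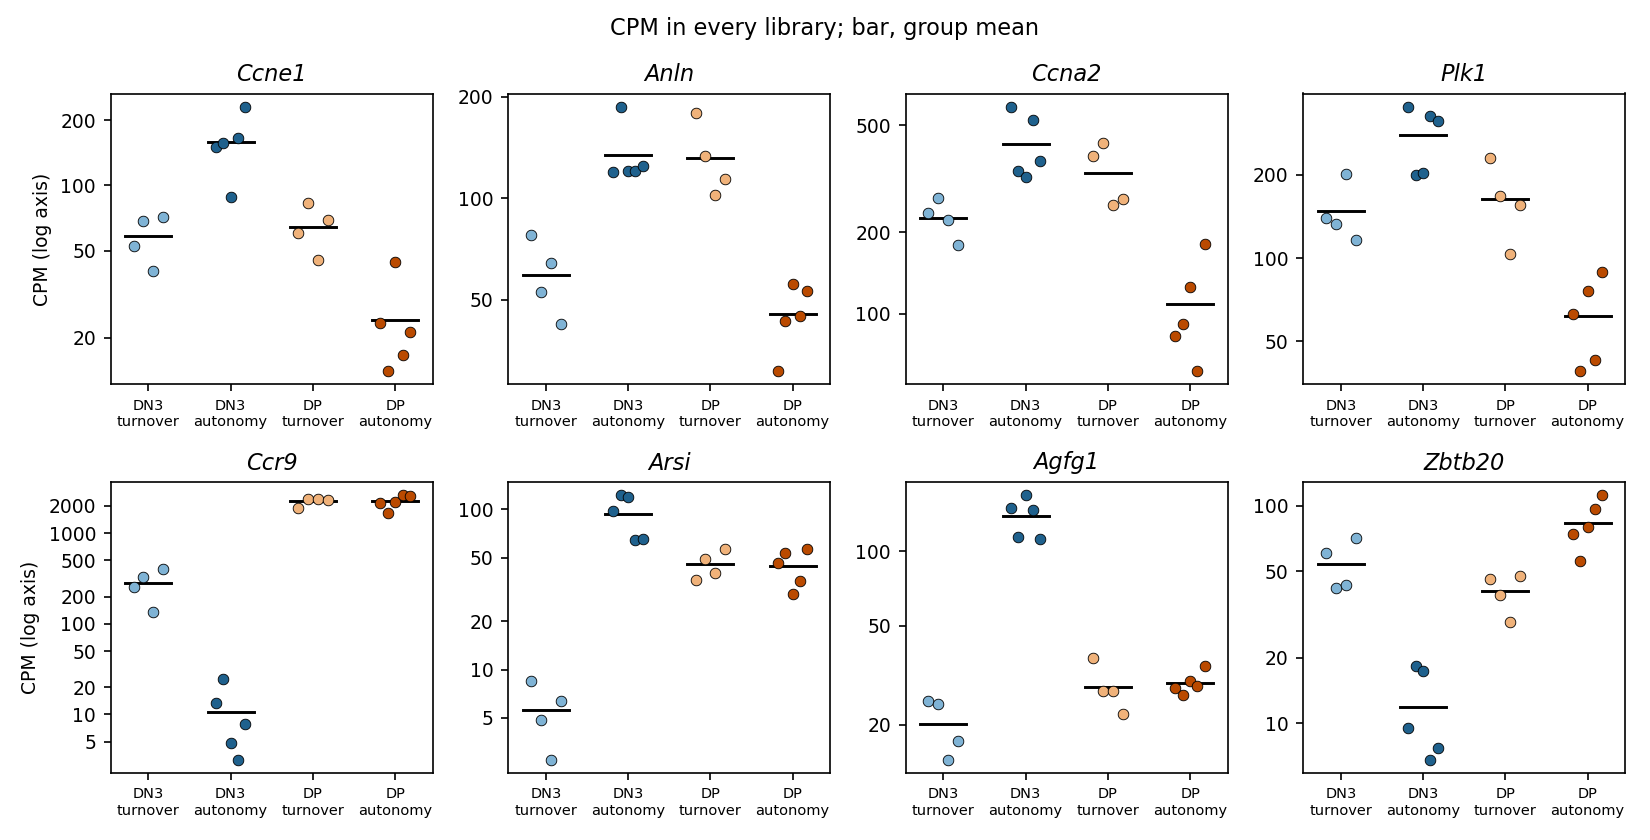
CPM on a log axis in every library for 8 genes in the 4 groups, with a bar at each group mean. Ccne1, Anln, Ccna2 and Plk1 are higher in DN3 autonomy and lower in DP autonomy, Ccr9, Arsi and Agfg1 differ within DN3, and Zbtb20 is lower in DN3 autonomy and higher in DP autonomy.

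The same division of the stages ran through the cell cycle lists. Of 30 G2 and mitosis genes, all tested, 26 passed below 0 and none above, with a median interaction of −1.81 against 0.06 for all genes. The 4 that did not pass were Bub3, Cenpf, Kif11 and Kif23, and their estimates also lay below 0. All 30 had a positive DN3 and a negative DP estimate, a combination found for 2462 (21.4%) of all genes tested. In the single-stage tests 18 rose in DN3 and 15 fell in DP, with none in the other direction at either stage. Without RP1141B 25 passed, with a median of −1.80, and leaving out each library in turn gave 24 to 27. Mki67, the proliferation marker Ki-67, had an interaction of −2.15 (SE 0.38, adjusted p = 0.0023), and Bub1b, a spindle checkpoint kinase, of −2.18 (SE 0.28, adjusted p = 0.000194). Mki67 passed the single test in DP, where it fell from 745 ± 171 to 304 ± 120.1 CPM, and in DN3 its means were 313 ± 65.2 and 568.3 ± 197 CPM (adjusted p = 0.055).

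Of 29 S phase and DNA replication genes, 18 passed below 0 and none above, with a median of −1.21, and 17 without RP1141B. Single-stage calls were split unevenly here: 15 members rose in DN3 and 6 fell in DP. Pcna, the sliding clamp of the polymerases, rose in DN3 from 655 ± 75.4 to 1082 ± 159 CPM and had means of 417 ± 78.1 and 354 ± 66.0 CPM in DP (single-test adjusted p = 0.437). Summed over the list, DN3 turnover libraries held 9940 to 11092 CPM, DN3 autonomy 14559 to 18672 CPM, DP turnover 4617 to 6463 CPM and DP autonomy 2938 to 5208 CPM. The sums were apart in DN3 and overlapped in DP. For G2 and mitosis the sums were 5182 to 6198, 7800 to 11352, 7476 to 11058 and 3529 to 6586 CPM in the same order, apart at both stages. The order of the stages in the G2 and mitosis sum thus differed between conditions: DP libraries lay above DN3 libraries in turnover and below them in autonomy.

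**Figure D3:**
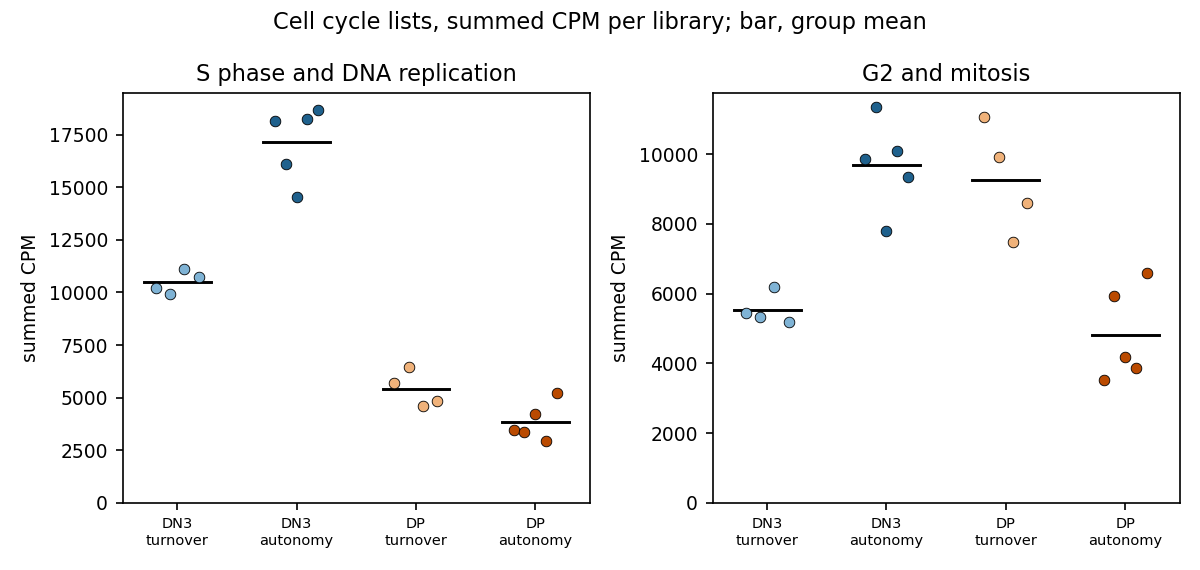
Summed CPM per library of the S phase (left) and G2 and mitosis (right) lists in the 4 groups, with a bar at each group mean and the axis starting at 0. DN3 autonomy lies above DN3 turnover in both panels, and in the right panel every DP autonomy library lies below every DP turnover library.

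Most histone and nuclear envelope genes were not called. Of 22 histone genes tested 5 passed below 0 (H2afz, H2afx, Hist1h1b, Hist1h2ae and Hist2h2ac) and none above, with a median of −1.46. Only 3 passed without RP1141B, and likewise without DN3 turnover RP1140A, DN3 autonomy RP1134, DP turnover RP1140A or RP1141A, or DP autonomy RP1136. H2afz, the variant histone H2A.Z, rose in DN3 from 1143 ± 121 to 2190 ± 295 CPM and had DP means of 836 ± 132 and 673 ± 127 CPM. Its interaction was −1.25 (SE 0.21, adjusted p = 0.00137). Lmnb1, the lamin B1 of the nuclear lamina, rose in DN3 from 208 ± 27.7 to 363 ± 35.3 CPM and fell in DP from 330.4 ± 32.5 to 192 ± 39.1 CPM. Its interaction was −1.59 (SE 0.21, adjusted p = 0.000242). Tmpo, which encodes the LAP2 lamina proteins, fell in DP alone: its turnover libraries held 319.8, 465, 579 and 437 CPM and its autonomy libraries 144, 140.5, 120.3, 132 and 163 CPM. In DN3 its levels were 195, 542, 224 and 130.5 CPM in turnover and 228 to 322 CPM in autonomy. Lmnb1 and Tmpo were the only 2 of 20 nuclear envelope genes to pass. The Tmpo interaction was −1.67 (SE 0.40, adjusted p = 0.0172), and −1.46 (adjusted p = 0.0273) without RP1141B.

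Of the named genes with at least 10 CPM at both stages, the 5 with the highest interactions and the lowest of all passed the single-stage test in DN3 and not in DP, which does not show that they were level in DP. Baiap3, which acts in vesicle release, was the highest at 4.84 (SE 1.15, adjusted p = 0.0166), although it lost the call in 5 other settings, with the replicate block, with the A and B libraries summed and in voom (adjusted p up to 0.328). It fell in DN3 from 28.9 ± 10.3 to 4.73 ± 3.58 CPM, while its overlapping DP groups had means of 4.98 ± 2.31 and 23.2 ± 17.4 CPM. Ccr9, the chemokine receptor for CCL25 that is strongly expressed in DP cells, had 255, 329, 134 and 403 CPM in DN3 turnover and 13.3, 24.4, 4.87, 3.17 and 7.88 CPM in DN3 autonomy. Its DP levels were 1922, 2383, 2368 and 2341 CPM in turnover and 2140.1, 1687, 2221, 2627 and 2592 CPM in autonomy. Every DN3 autonomy library was far below every DN3 turnover library, while the DP groups overlapped with equal means of 2253 CPM. The interaction was 4.74 (SE 0.56, adjusted p = 0.000125), and 4.50 (SE 0.55, adjusted p = 0.000146) without RP1141B.

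Zbtb20, a zinc finger repressor, fell in DN3 from 60.5, 41.7, 43.4 and 71.0 CPM to 9.47, 18.3, 17.4, 6.81 and 7.72 CPM. In DP its turnover libraries held 45.9, 39.0, 29.4 and 47.7 CPM and its autonomy libraries 74.1, 55.6, 79.9, 96.4 and 112 CPM. The DP groups did not overlap either, although the single DP test missed the threshold (adjusted p = 0.0649). The Zbtb20 interaction was 3.24 (SE 0.43, adjusted p = 0.000242), and 3.06 (SE 0.43) without RP1141B. Cd53, a tetraspanin of leukocytes, fell in DN3 from 91.7 ± 25.9 to 15.4 ± 8.27 CPM and had DP means of 54.2 ± 23.8 and 70.9 ± 17.8 CPM, with an interaction of 2.97 (SE 0.48, adjusted p = 0.00119). Pik3ip1, an inhibitor of PI3 kinase found in resting T cells, fell in DN3 from 166, 163, 141 and 200.4 CPM to 30.2, 22.2, 63.7, 15.1 and 14.6 CPM. Its DP libraries held 108 to 150.2 CPM in turnover and 148 to 187 CPM in autonomy, with an interaction of 2.87 (SE 0.44, adjusted p = 0.00075). Hsd11b1, which regenerates active glucocorticoid, and Ypel3, a growth-restraining protein, had interactions of 3.03 (SE 0.37) and 3.01 (SE 0.42), and Tctex1d1 and Tcp11l2 of 2.98 (SE 0.49) and 2.97 (SE 0.48). Cyp4f13, a cytochrome P450, had 2.94 (SE 0.55). With all libraries each of these 5 fell at least 5-fold in DN3 and none passed the DP test. Without RP1141B their interactions were 2.73, 2.92, 2.38, 2.72 and 2.80 in the order named, and all were still called. Tctex1d1 changed most, and its DN3 turnover level with all libraries was 35.3 ± 24.4 CPM.

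Below 0, Arsi, of the arylsulfatase family, rose in DN3 from 8.54, 4.83, 2.74 and 6.40 CPM to 97.7, 123, 119, 64.2 and 65.1 CPM. In DP it had 36.4, 48.8, 40.2 and 56.5 CPM in turnover and 46.2, 53.8, 29.9, 35.9 and 56.7 CPM in autonomy. Its DN3 groups were widely apart and its DP groups overlapped fully. The interaction was −4.09 (SE 0.43, adjusted p = 7.03e-05), and −4.18 (SE 0.46, adjusted p = 7.58e-05) without RP1141B. Agfg1, a protein with an ARF GTPase-activating domain, rose in DN3 from 20.2 ± 5.22 to 138 ± 24.1 CPM and had DP means of 28.5 ± 6.30 and 29.5 ± 3.01 CPM, with an interaction of −2.72 (SE 0.30, adjusted p = 7.03e-05). Ptpn14, a tyrosine phosphatase, had an interaction of −2.45 (SE 0.48). H2-Q2 had −2.62 (SE 0.29), an uncertain value because reads can be shared with other H2-Q genes. Ikzf3, the transcription factor Aiolos, rose in DN3 from 12.4 ± 8.13 to 43.8 ± 7.91 CPM towards the DP mean of 124 CPM that both DP groups shared, with an interaction of −1.83 (SE 0.39, adjusted p = 0.00973), and −2.40 (SE 0.29, adjusted p = 0.000146) without RP1141B.

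Fewer genes passed the single-stage test in DP alone. Psrc1, a microtubule-associated protein of the mitotic spindle, fell in DP from 25.2 ± 7.85 to 4.37 ± 3.98 CPM and had DN3 means of 14.5 ± 2.48 and 21.1 ± 4.58 CPM, with an interaction of −3.06 (SE 0.75, adjusted p = 0.0203). Sapcd2, a spindle orientation factor, passed in neither single test, although its groups did not overlap at either stage: means were 16.3 ± 3.39 and 33.5 ± 8.27 CPM in DN3 and 15.4 ± 6.08 and 5.36 ± 3.31 CPM in DP, with an interaction of −2.60 (SE 0.62). Tbc1d19, of the Rab GTPase-activating TBC family, had 29.7, 57.7, 59.9 and 32.3 CPM in DP turnover and 2.08, 2.44, 12.8, 3.75 and 2.42 CPM in DP autonomy, against 24.2 to 49.4 CPM in DN3 turnover and 18.1 to 36.0 CPM in DN3 autonomy. Its interaction was −2.70 (SE 0.64, adjusted p = 0.0172). Rpp38, a subunit of the RNase P and RNase MRP complexes, had 1.89, 1.98, 0.429 and 0.838 CPM in DP turnover and 16.5, 14.03, 9.99, 8.08 and 4.84 CPM in DP autonomy. In DN3 it stayed between 32.9 and 61.6 CPM over all 9 libraries. Its interaction was 3.09 (SE 0.55, adjusted p = 0.0023), and 3.01 (SE 0.59) without RP1141B. Tpi1, the triose phosphate isomerase of glycolysis, fell in DP from 78.3, 88.1, 69.1 and 58.3 CPM to 40.7, 23.3, 24.8, 19.7 and 27.2 CPM, while its DN3 means were 297 ± 52.4 and 413 ± 62.2 CPM. The Tpi1 interaction was −1.93 (SE 0.27, adjusted p = 0.000402). With the A and B libraries summed, Tbc1d19 lost the call and Rpp38 and Tpi1 kept it, and Tbc1d19 also lost it without DP autonomy RP1133 and RP1135.

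In 42 of the called genes a group had no reads, 30 above and 12 below 0. Their folds are given as limits on the ratio of means, with 3 counts in each library of the empty group. These limits cover counting error in the empty group only, and not the spread or counting error of the other group. Il7r, the interleukin-7 receptor alpha chain that DN3 cells depend on and DP cells shut off, had no reads in any DP turnover library and 1.33, 1.91, 5.51, 2.07 and 0 CPM in DP autonomy. Its DP autonomy mean was at least 8.25-fold higher, although a DP autonomy library also had no reads. In DN3 its levels were 139, 182, 148 and 112 CPM in turnover and 144, 101, 229, 120.0 and 101 CPM in autonomy. The interaction passed (adjusted p = 0.00293, and 0.00521 without RP1141B). Kit, the receptor for stem cell factor on early progenitors, had 10.5, 12.4, 16.8 and 0.209 CPM in DP turnover and no reads in DP autonomy, at least 27.7-fold lower. In DN3 its levels were 58.1, 80.3, 47.2 and 32.6 CPM in turnover and 24.4, 7.73, 13.9, 2.93 and 6.42 CPM in autonomy. Kit was thus lower in autonomy at both stages, and the interaction passed below 0 (adjusted p = 0.0184, and 0.0355 without RP1141B). Voom did not call Kit or Il7r.

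Another 7 named genes, called in both fits, had at least 10 CPM in a group of 1 stage and under 1 CPM in both groups of the other. A level that low can hardly show a change, so these calls are no evidence that the stages responded differently. The fitted log2 effects of Tifa, Clec12a and Lrp1 were larger in DP (5.62, 6.70 and 6.24) than in DN3 (−4.03, −2.30 and −1.88). Those DP effects rest on no reads in turnover and under 1 CPM in autonomy, so their size is not known. Clec7a, a beta-glucan receptor of myeloid cells, had 10.5 ± 8.002 CPM in DP autonomy, no reads in DN3 autonomy or DP turnover and 0.470 ± 0.849 CPM in DN3 turnover. Adam19, a membrane metalloprotease, had no reads in DN3 turnover, 22.2 ± 10.2 CPM in DN3 autonomy, at least 98.2-fold higher, and under 1 CPM in the DP groups. Tifa, Clec12a and Lrp1 passed above 0 and Rhov and Ifi204 below 0, the last uncertain because Ifi200 family members share sequence. For 5 of these genes leaving out 1 library ended the call. Leaving out DP autonomy RP1136 ended the call of Tifa, DP turnover RP1140B those of Lrp1 and Rhov, DP turnover RP1141A that of Adam19 and DP turnover RP1141B that of Ifi204. The fitted estimate for Lrp1 was 8.11 with all libraries and no lower than 7.24 in any leave-out. With no reads in DP turnover, its stability over leave-outs does not show how large the effect was. The limit from 3 counts in each DP turnover library put the Lrp1 mean at least 2.72-fold higher in DP autonomy, which covers counting error in DP turnover only.

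Macrophage transcripts moved with several genes above 0. The summed level of 10 macrophage markers was 23.9 to 39.0 CPM in DN3 turnover, 5.76 to 20.0 CPM in DN3 autonomy, 4.49 to 47.2 CPM in DP turnover and 25.9 to 141.1 CPM in DP autonomy, highest in RP1133 and RP1135. Of the 7 markers tested, 1 passed above 0: Lyz2, the lysozyme of myeloid cells, with means of 26.3, 4.20, 6.98 and 26.7 CPM in the same order and an interaction of 4.57 (SE 1.11, adjusted p = 0.0194). Without DP autonomy RP1133 and RP1135 Lyz2 lost the call, and 479 genes passed in all, 248 above and 231 below 0. The part of macrophage RNA in Clec7a, Clec12a and Lrp1 was not tested. Dendritic cell markers summed to 175 to 438 CPM in DP autonomy and 96.8 to 178 CPM in the other groups, and none of 6 tested passed in edgeR (3 at an unadjusted p under 0.05, 2 in DESeq2 and 1 in voom). Of 6 NK cell markers Gzma (adjusted p = 0.0138) and Tbx21 (adjusted p = 0.00335) passed below 0, and of 3 fibroblast and endothelial markers Pecam1 passed above 0 (adjusted p = 0.0424, and 0.0626 without RP1141B). None of 4 B cell, 4 thymic epithelium, 1 erythroid or platelet and 1 mast cell or granulocyte markers passed in edgeR. At an unadjusted p under 0.05 these counts were 2, 1, 0 and 0, DESeq2 called 1, 0, 0 and 0, and voom called none. No kidney tubule marker had enough reads to be tested. Mcpt4 and Tpsb2 of mast cells, Krt5 and Krt14 of thymic epithelium, Pdgfra of fibroblasts and Ms4a1 of B cells were at 0 in every library.

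The coreceptor genes and Cd2 depended on library RP1141B, unlike Ccr9 and Cd1d1, which were called in every setting. Cd8a, the alpha chain of the CD8 coreceptor, had 6.88, 7.35 and 2.53 CPM in 3 DN3 turnover libraries and 385 CPM in RP1141B, with 69.4, 63.6, 46.2, 39.0 and 71.7 CPM in DN3 autonomy. DP libraries held 2169 to 2328 CPM in turnover and 2053 to 2161 CPM in autonomy. RP1141B thus lay above all DN3 autonomy libraries and the other 3 below them. The Cd8a interaction was 0.72 (SE 1.19, adjusted p = 0.806) with all libraries and −3.47 (SE 0.33, adjusted p = 1.38e-05) without RP1141B. Cd8b1, the beta chain, had 24.7, 6.996, 14.7 and, in RP1141B, 615 CPM in DN3 turnover, and 131, 106, 79.0, 96.8 and 69.6 CPM in DN3 autonomy. Its DP libraries held 1852 to 2083 CPM in turnover and 2185 to 3083 CPM in autonomy without overlap, and its interaction changed from 1.28 (SE 1.10, adjusted p = 0.565) to −2.15 (SE 0.36, adjusted p = 0.00178).

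Cd2, an adhesion receptor induced by pre-T-cell receptor signals, had 11.1, 7.49, 10.8 and, in RP1141B, 87.0 CPM in DN3 turnover and 239, 237, 153, 349 and 240.4 CPM in DN3 autonomy. In DP it had 193 to 225 CPM in turnover and 329 to 604 CPM in autonomy, apart at both stages. The Cd2 interaction changed from −1.91 (SE 0.70, adjusted p = 0.122) to −3.50 (SE 0.33, adjusted p = 1.38e-05). Cd4 had 1.19, 1.96, 0.422 and, in RP1141B, 135 CPM in DN3 turnover, 1.99 to 7.97 CPM in DN3 autonomy and 647 to 895 CPM in DP. Its interaction turned from 3.23 (SE 1.35, adjusted p = 0.181) to −1.63 (SE 0.50, adjusted p = 0.081) and passed in neither fit. H2-Q1, uncertain as a paralog, and Anxa5 also gained a call below 0.

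**Figure D4:**
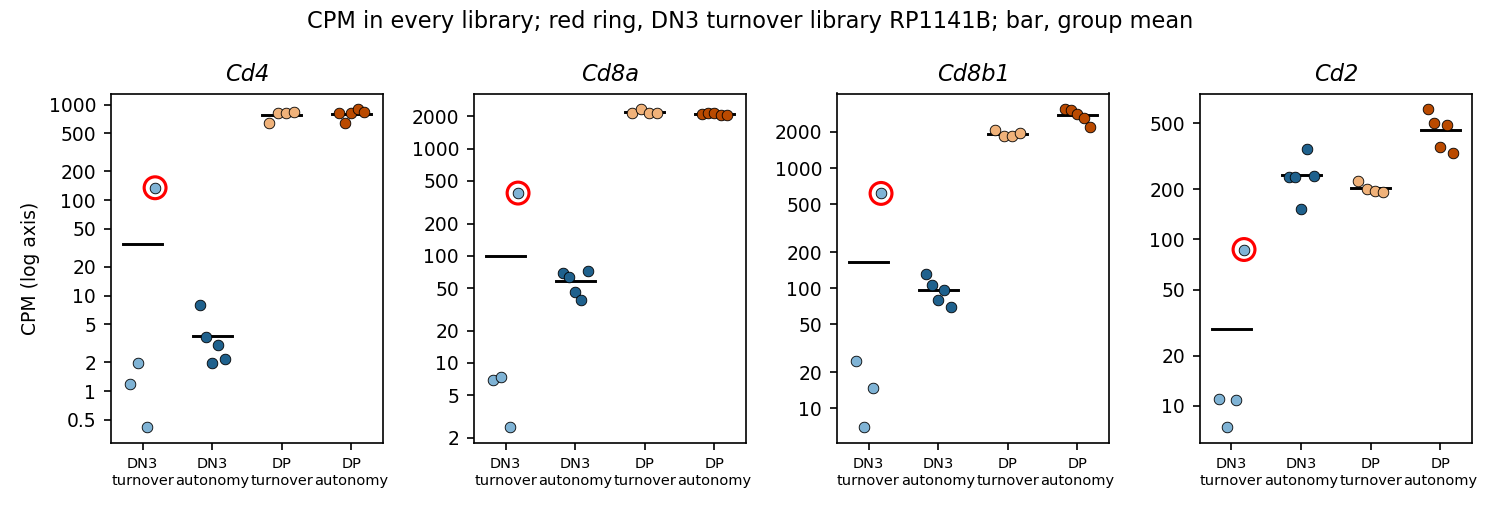
CPM on a log axis in every library for Cd4, Cd8a, Cd8b1 and Cd2, with the DN3 turnover library RP1141B ringed in red and a bar at each group mean. RP1141B lies above the other 3 DN3 turnover libraries in all 4 panels, and above every DN3 autonomy library in all but Cd2.

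Among genes that lost the call without RP1141B, Bcl6, a transcriptional repressor that is higher in DP cells, went from 2.49 (SE 0.69, adjusted p = 0.0381) to 1.17 (SE 0.39, adjusted p = 0.108). Cd69, an early activation marker of positive selection, went from 2.01 to 1.32, and Tmsb4x, thymosin beta 4, from 1.85 to 1.42. Dennd1c, Ppp1r3b and Mbnl2 went from 1.33, 2.12 and 1.02 to 0.85, 1.66 and 0.66. All 6 kept a positive estimate. The loss was not particular to RP1141B for Bcl6, Cd69, Dennd1c and Mbnl2, which lost the call in 12, 11, 12 and 15 of 18 leave-outs. Ppp1r3b and Tmsb4x lost it in this 1 leave-out only. Cd52, a surface glycoprotein of lymphocytes, kept its call: it had 10.4, 8.82, 13.1 and, in RP1141B, 86.2 CPM in DN3 turnover and 2.83 to 5.38 CPM in DN3 autonomy, against 229 to 339 and 296 to 609 CPM in DP. Its interaction changed from 3.64 (SE 0.71, adjusted p = 0.0047) to 2.16 (SE 0.33, adjusted p = 0.000973) without RP1141B.

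Counts for gene lists, above and below, are to be read against the 2.88% of all genes called above 0 and 2.61% called below 0. Of 20 double-positive stage genes, 5 passed above 0 and none below (Aqp11, Ccr9, Cd1d1, Cd52 and Trat1), with a median of 0.70. Without RP1141B 5 passed above and 3 below, and the median was 0.08. Cd1d1, which presents lipids to NKT cells, fell in DN3 from 81.6 ± 24.6 to 35.7 ± 2.97 CPM and had DP means of 101 ± 16.0 and 138 ± 15.9 CPM, with an interaction of 1.65 (SE 0.26, adjusted p = 0.000845). Of 26 T-lineage identity genes, 5 passed above 0 (Cd247, Cd3d, Cd3g, Lat and Lck) and Ikzf3 below. Without RP1141B 4 passed above and 2 below 0, Zap70 having joined Ikzf3. The count above 0 was 3 without DN3 turnover RP1140A, any of DN3 autonomy RP1133, RP1137 and RP1138, DP turnover RP1140B, RP1141A or RP1141B, or DP autonomy RP1136 or RP1137. Cd3g, a chain of the CD3 complex, fell in DN3 from 2509 ± 534 to 1376 ± 444 CPM and had DP means of 929 ± 97.6 and 1508 ± 239.9 CPM (adjusted p = 0.0673 in DP), with an interaction of 1.57 (SE 0.29, adjusted p = 0.00277).

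Of 18 positive selection genes, 4 passed above 0, Cd53, Cd69 and Il7r among them, and none below, with a median of 0.97, and 3 passed without RP1141B. Of 17 genes of glucocorticoid response and quiescence, 4 passed above 0 (Btg2, Il7r, Pik3ip1 and Tsc22d3) and none below, with a median of 0.67, and 4 without RP1141B. Btg2, an antiproliferative gene, fell in DN3 from 131 ± 60.2 to 47.2 ± 8.11 CPM with DP means of 439 ± 23.997 and 428 ± 94.2 CPM, an interaction of 1.44 (SE 0.31, adjusted p = 0.0106). Of 21 p53 targets, Btg2, Gadd45a, Sesn1 and Trp53inp1 passed above 0 and Gtse1 below, and 2 passed above 0 without RP1141B. Gtse1, a protein of G2 and S phase, had an interaction of −1.76 (SE 0.39, adjusted p = 0.0107). Of 19 genes of the IL-7 receptor pathway, Il7r and Jak1 passed above 0 and Ccnd3 below, with a median of 0.63. Ccnd3, the cyclin D3 that beta-selected cells need to divide, rose in DN3 from 334 ± 68.2 to 684 ± 153 CPM and had DP means of 1139 ± 73.7 and 1012 ± 123 CPM, with an interaction of −1.20 (SE 0.23, adjusted p = 0.00432).

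Of 17 Notch genes tested, Nrarp passed below 0 with all libraries (adjusted p = 0.0479) and none without RP1141B. Unadjusted p-values under 0.05 numbered 6, and DESeq2 called 3 of the 17. The call of Nrarp was lost in 16 of 18 leave-outs, and its levels were at most 8.84 CPM in any library. Dtx1, a direct Notch target, had 46.3, 48.9, 49.0 and 38.0 CPM in DN3 turnover and 142, 83.4, 189, 78.4 and 70.6 CPM in DN3 autonomy. DP levels were 1.46, 8.07, 3.37 and 6.91 CPM in turnover and 55.3, 52.3, 19.2, 45.3 and 30.5 CPM in autonomy. Dtx1 thus rose at both stages without overlap, by log2 1.31 in DN3 and 2.99 in DP, with an interaction of 1.69 (SE 0.55, adjusted p = 0.0811). Ctse, cathepsin E, likewise rose at both stages, from 14.9 ± 5.20 to 127 ± 12.8 CPM in DN3 and from 4.43 ± 4.20 to 154 ± 25.7 CPM in DP. Its interaction was 1.96 (SE 0.64, adjusted p = 0.0798). Neither passed, which does not show that the stages responded alike.

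Other genes of a panel of T-cell regulators that did not pass were Ptcra (0.29, SE 0.31), Il2ra (1.98, SE 0.60, adjusted p = 0.0568), Notch1 (0.08, SE 0.42), Notch3 (1.69, SE 0.70) and Hes1 (1.38, SE 1.41). Nor did Rag1 (0.23, SE 0.41), Rag2 (0.65, SE 0.35), Dntt (0.57, SE 0.19, adjusted p = 0.084), Tcf7 (0.06, SE 0.22), Gata3 (0.91, SE 0.32), Cd3e (0.45, SE 0.40), Bcl2 (1.46, SE 0.47, adjusted p = 0.0763) or Myc (−0.59, SE 0.28) pass. Dntt, the terminal transferase of receptor rearrangement, fell in DN3 from 3744 ± 375 to 1940.2 ± 436 CPM and had DP means of 3547 ± 116.7 and 2727 ± 162 CPM, with no overlap at either stage. Bcl11b, a factor that fixes T-cell identity, had an interaction of 0.75 (SE 0.24, adjusted p = 0.0664) and passed without RP1141B with 0.85 (SE 0.22, adjusted p = 0.0395).

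Interferon-stimulated genes had a median of 0.96, and 3 of 33 passed above 0 (Cmpk2, Irf9 and Oasl2) and none below. The count was 6 without DN3 autonomy RP1135 and 5 without DP autonomy RP1138. Irf9, the DNA-binding subunit of the interferon-activated complex ISGF3, had 50.9 to 84.9 CPM in DN3 turnover and 24.2 to 78.9 CPM in DN3 autonomy. In DP it had 23.2, 35.7, 27.7 and 61.0 CPM in turnover and 141, 113, 94.8, 155 and 57.1 CPM in autonomy. Its DP groups overlapped through turnover library RP1141B and autonomy library RP1138, and its interaction was 2.13 (SE 0.48, adjusted p = 0.0126). Cmpk2, a mitochondrial nucleotide kinase induced by interferon, had no reads in DP turnover and 2.91 to 9.04 CPM in DP autonomy, at least 22.3-fold higher, with DN3 means of 6.80 ± 2.57 and 19.4 ± 20.3 CPM. The summed level of the list ran from 744 to 4317 CPM in DN3 autonomy, a wider range than in the other groups (1549 to 2067, 759 to 1112 and 814 to 2549 CPM).

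Of 17 genes induced by pre-T-cell or T-cell receptor signals, Cd27, Cd69, Egr1 and Nr4a3 passed above 0 and none below, with a median of 0.80. The count was 1 or 2 after leaving out any library other than DN3 turnover RP1140A or RP1140B, DN3 autonomy RP1138, or DP autonomy RP1136 or RP1138. Without RP1141B Cd27 passed above and Cd2 below 0. Cd27, a costimulatory receptor, held in every leave-out. It fell in DN3 from 155 ± 50.3 to 88.0 ± 13.4 CPM and had DP means of 378 ± 22.1 and 497 ± 55.0 CPM, with an interaction of 1.21 (SE 0.24, adjusted p = 0.00575).

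Calls in the metabolic and growth lists are read against the 2.88% of all genes called above and the 2.61% called below 0. Of 22 glycolysis genes, Tpi1 and Gapdh passed below 0, with a median of −0.49. Gapdh lost the call without DN3 turnover RP1140A and in 5 of 16 settings other than single leave-outs. Of 34 oxidative phosphorylation genes, Uqcrfs1 passed below 0, and its call was lost without DP turnover RP1140A and in 6 of 16 settings other than single leave-outs. Of 27 Myc targets in ribosome biogenesis, Npm1 and Utp20 passed below 0, with a median of −0.16. None of 23 cholesterol synthesis genes and none of 12 Bcl2 family genes passed in edgeR, with 2 of each under an unadjusted p of 0.05. DESeq2 called 1 of each, and voom 0 and 2. In the list for unfolded protein and integrated stress responses, with 21 genes tested, Xbp1 passed above and Mthfd2 below 0, with 3 below 0 after DP autonomy RP1138 was left out. Of 13 mitochondrially encoded genes mt-Cytb passed above 0 (adjusted p = 0.0432), with a median of 0.67, and lost the call in 13 of 18 leave-outs. The calls in the remaining lists were Hmgb2 of 14 Rag and end-joining genes (0 without DN3 turnover RP1140A, DN3 autonomy RP1137, DP turnover RP1140A or DP autonomy RP1133), Kit of 10 early progenitor genes, 5830411N06Rik of 13 gamma-delta lineage genes (0 without DP autonomy RP1133 and 2 without RP1137, and 1 above and 1 below 0 without DN3 turnover RP1141B), Egr1 of 11 immediate early and heat shock genes (none without RP1141B), and Ezh2, Kit and Il7r of 20 T-cell leukaemia-linked genes (1 above and 2 below 0, and 2 and 2 without RP1141B).

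**Figure D5:**
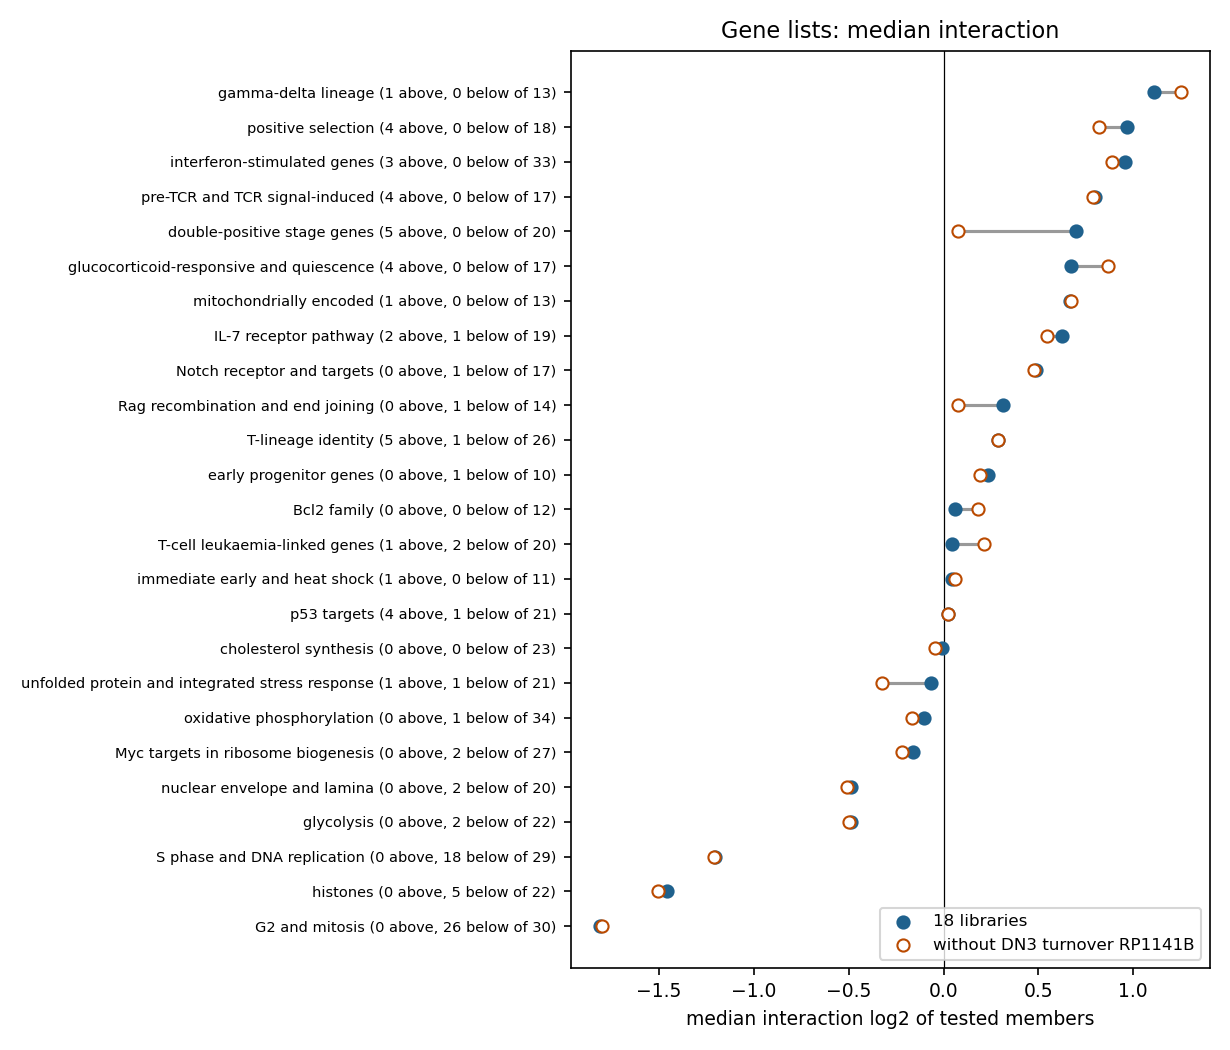
Median interaction (log2, horizontal axis) of the tested members of 25 gene lists, with the number called above and below 0 beside each name. Filled points use all 18 libraries and open points leave out DN3 turnover RP1141B: G2 and mitosis, histones and S phase lie lowest in both, and the median of the double-positive stage list moves from 0.70 to 0.08.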

How the data were processed

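The deposited table holds the authors' raw read counts per Ensembl gene, as whole numbers. The submitters' processing notes name HISAT2, featureCounts, FastQC and DESeq2 and the builds GRCm38 and mm10. Versions, settings and strand use are not stated there, so overlapping genes and close paralogs have uncertain values. Per the labels' protocols, sorted cells were lysed, RNA was captured with oligo-dT beads, and Pico Nextera gave the libraries. All 18 columns matched a sample by name. Of 22619 identifiers 22601 matched GENCODE M21, which supplied symbols and coordinates.

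Counts were analysed in R 4.3.3 with edgeR 4.0.16: filterByExpr, TMM scaling, 1 quasi-likelihood model of 4 group means without a block, and Benjamini-Hochberg adjustment over all genes tested, with a threshold of 0.05. The script was tested on simulated data. Limma 3.58.1 (voom) and DESeq2 1.42.0 served as alternatives. The authors' deposited DESeq2 tables were not used here.

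Genes were named by a rule: the 12 highest and 12 lowest interactions called with and without RP1141B and with at least 10 CPM at both stages; 4 per direction restricted to a stage; 8 called in opposite directions; 6 that lost and 6 that gained a call without RP1141B; up to 2 per direction of each of 25 gene lists; and a panel of 25 genes. Receptor segments and predicted genes were only counted, and other names are marked or are list members. Some of the genes the rule picks are given as counts only or are not reported here. The members and lists, including 11 lists of cell markers, were chosen with earlier results of these data known. Alternatives were leaving out each library, RP1141B in both stages, blocks by number, other tools, scalings and filters.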

Additional observations from a re-analysis of the deposited data

Results flagged for a closer look

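The comparison itself met the rule for a difference between groups: 633 genes had an autonomy effect that differed between DP and DN3 by the interaction test.

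Within each group of 4 or 5 libraries, Dixon's test at 95% asked whether the highest or lowest library stood apart, for 26 genes and 4 summed lists whose values are given above. It marked 15 of 120 group values. Chance marks about 1 in 20 where genes are not chosen by their values, which does not hold for all genes here. DN3 turnover RP1141B was the highest library for Cd8a (385 CPM), Cd8b1 (615 CPM), Cd4 (135 CPM), Cd2 (87.0 CPM), Cd52 (86.2 CPM) and the summed DP markers (3001 CPM). These 6 values are not independent, since they come from 1 library and the genes share their DP pattern. Cd8a, Cd8b1 and Cd2 were also named because their interactions changed without RP1141B, and the DP marker sum had already set that library apart. DP turnover RP1140A was lowest for Ccr9 (1922 CPM), Cd4 (647 CPM) and the summed DP markers (7795 CPM), and DP turnover RP1140B was highest for Cd8a (2328 CPM).

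DN3 autonomy RP1134 was highest for Anln (187 CPM) and Mki67 (914 CPM). DN3 autonomy RP1133 was highest for Cd4 (7.97 CPM). DN3 turnover RP1140B was lowest for Hmmr (84.9 CPM). DP autonomy RP1136 was highest for Tbc1d19 (12.8 CPM).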

How the results depend on the processing

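Of 99 named genes, 76 passed the interaction test with all 18 libraries. Across 34 other settings none of the 76 reversed, 58 passed in every leave-out and 29 in every setting that gave a value. Leaving out each library in turn gave 424 to 684 called genes, 192 to 357 above 0 and 213 to 355 below 0. Only the removal of DN3 turnover RP1141B moved any of these counts over 1.5 times, to 192 above 0. Without RP1141B in both cell types 386 genes passed, 179 above 0. With A and B libraries summed 145 passed (69 above, 76 below), with DESeq2 1101 (610 above, 491 below), and in a test against a 1.5-fold interaction 170 (85 above, 85 below). Voom called 841.

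Over all genes tested, same-numbered DN3 and DP libraries showed little shared deviation. The 8 correlations were 0.0012 to 0.052, and 3 of 8 libraries correlated best with their own number. The numbers were not treated as pairs, but these correlations cannot exclude pairing, since noisy genes with few reads enter them. Summed interferon-stimulated genes ranked the shared autonomy numbers alike at both stages, from RP1135 (4317 CPM in DN3, 2549 CPM in DP) to RP1138 (744 and 814 CPM). The turnover numbers did not rank alike. With the RP number as a replicate block 291 genes passed (143 above, 148 below), with the block and without RP1141B 170 (77 above, 93 below), and with a random block in voom 822.

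Directions that reversed belonged to genes that were not called with all libraries. Across leave-outs Cd4 ranged from −1.63 to 3.70, Cd8a from −3.47 to 1.12, Cd8b1 from −2.15 to 1.69, Hes1 from −0.36 to 7.57, Notch1 from −0.070 to 0.26, Rag1 from −0.15 to 0.41 and Tcf7 from −0.14 to 0.14. Without RP1141B in both cell types Cd4 was −1.56, Cd8a −3.45, Cd8b1 −2.12 and Rag1 −0.11. With the replicate block Cd8a was −2.38, Cd8b1 −1.23 and Notch1 −0.030. With the random block Cd8a was −2.16 and Cd8b1 −0.97, and voom gave the same rounded values. With the block and without RP1141B Cd4 was −1.52, Cd8a −3.51 and Cd8b1 −2.26. With A and B summed Tcf7 was −0.017. Without DP autonomy RP1133 and RP1135, a setting chosen after seeing the data, Hes1 was −0.25. The cause of these changes was not tested. Upper quartile scaling moved the share above 0 from 52.4% with TMM to 57.2%. DP libraries correlated less within their groups (0.882 to 0.902) than DN3 libraries (0.913 to 0.967), and genes near the 3-count floor carry wide errors.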
